A study of Mus musculus with 6 samples.

Results

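The genes described here are 10 genes of fat breakdown and of the lipid droplet surface in the inguinal white adipose tissue of mice, the subcutaneous fat pad of the groin. They were chosen by symbol, with no filter on their values, although earlier results of these data were known. All 10 were found among the 14861 genes of the deposited table: Pnpla2, Lipe, Mgll, Abhd5, G0s2, Hilpda, Plin1, Plin4, Cidec and Pde3b. In the group called AdIGF1RKO the gene of the IGF-1 receptor, Igf1r, was deleted in adipocytes through a cross of floxed mice (B6;129-Igf1rtm2Arge/J) with mice that express Cre recombinase from the adiponectin promoter (B6; FVB-Tg (Adipoq-Cre)1Evdr/J). The other group, Flox, consisted of their floxed littermates. Mice of both groups were fed normal chow (10% of energy as fat) over 24 weeks, were fasted overnight and were anesthetized with Avertin. Each group had 3 libraries of polyadenylated RNA, numbered 1 to 3. Besides adipocytes the pad contains cell types without Adipoq-Cre activity. The comparison asks whether transcripts of the machinery that stores and releases fat in this depot differ when adipocytes lose the receptor.

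An adipocyte keeps its triglyceride in a large droplet and splits it in steps, each with its own enzyme: adipose triglyceride lipase (Pnpla2) removes the first fatty acid, hormone-sensitive lipase (Lipe) acts on diacylglycerol, and monoacylglycerol lipase (Mgll) finishes the reaction. In the fasted state catecholamines raise cyclic AMP, and protein kinase A then phosphorylates Lipe and the coat protein perilipin 1 (Plin1), which frees the co-activator Abhd5 to bind Pnpla2. Insulin opposes this, in part through phosphodiesterase 3B (Pde3b), which breaks cyclic AMP down. G0s2 and Hilpda encode small proteins that inhibit Pnpla2, and Cidec encodes a protein that transfers lipid between droplets so that they grow.

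Library totals over the table lay between 60617147 and 70695527 reads. Values are given as scaled CPM, which are recovered reads divided by a median-ratio factor and expressed per 1000000 reads of a library of average size. The libraries differed in skeletal muscle RNA: 20 muscle markers took 0.0588%, 0.305% and 5.03% of the reads in AdIGF1RKO 1, 2 and 3, against 0.973%, 0.116% and 13.8% in Flox 1, 2 and 3. Igf1r, the floxed gene, had 6.11, 5.27 and 4.85 scaled CPM in AdIGF1RKO and 6.44, 6.47 and 5.86 in Flox. The groups overlapped for this gene (log2 difference -0.18, limma adjusted p = 0.998), and since the table has 1 value for the whole gene and the labels do not name the deleted part, this level is a weak check of the deletion. The adipocyte markers Adipoq and Fabp4 were high in every library. Adipoq, which encodes adiponectin, had 3348 to 4215 scaled CPM in AdIGF1RKO and 3799 to 4927 in Flox. Fabp4, the adipocyte fatty acid carrier, had 25157 to 26743 in AdIGF1RKO and 22671 to 30188 in Flox. In bulk tissue, fewer cells of a type and less RNA per cell cannot be told apart.

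No gene of the set passed the test between AdIGF1RKO and Flox, and the ranges of both groups overlapped for each of the 10 genes. Cidec, Pnpla2 and Plin1 were the most abundant per exon length, and the inhibitor Hilpda was the scarcest. Divided by exon length (union of exons in the GENCODE M21 annotation of build GRCm38, while the submitters' processing notes name GRCm39), Cidec was at the top with 1155 ± 148 scaled CPM per kilobase in AdIGF1RKO and 1126 ± 194 in Flox (SD, n = 3 each). Pnpla2 followed with 522 ± 111 per kilobase in AdIGF1RKO and 556 ± 110 in Flox. Plin1 had 388 ± 22.8 and G0s2 369 ± 138 per kilobase in AdIGF1RKO, against 361 ± 19.2 and 313 ± 122 in Flox, and the libraries of these neighbours in the order overlapped. Lipe, Plin4 and Mgll came next, at 151 ± 10.2, 129 ± 24.0 and 98.6 ± 6.80 per kilobase in AdIGF1RKO, against 161 ± 19.4, 113 ± 8.49 and 88.0 ± 11.4 in Flox, and each overlapped its neighbour in the order. Abhd5 stood apart from both neighbours, with 39.6 ± 3.54 per kilobase in AdIGF1RKO and 40.6 ± 2.97 in Flox. Pde3b and Hilpda were lowest, with 19.7 ± 2.06 and 16.1 ± 5.71 per kilobase in AdIGF1RKO, against 21.2 ± 1.95 and 11.9 ± 1.85 in Flox, and overlapped each other.

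**Figure D1:**
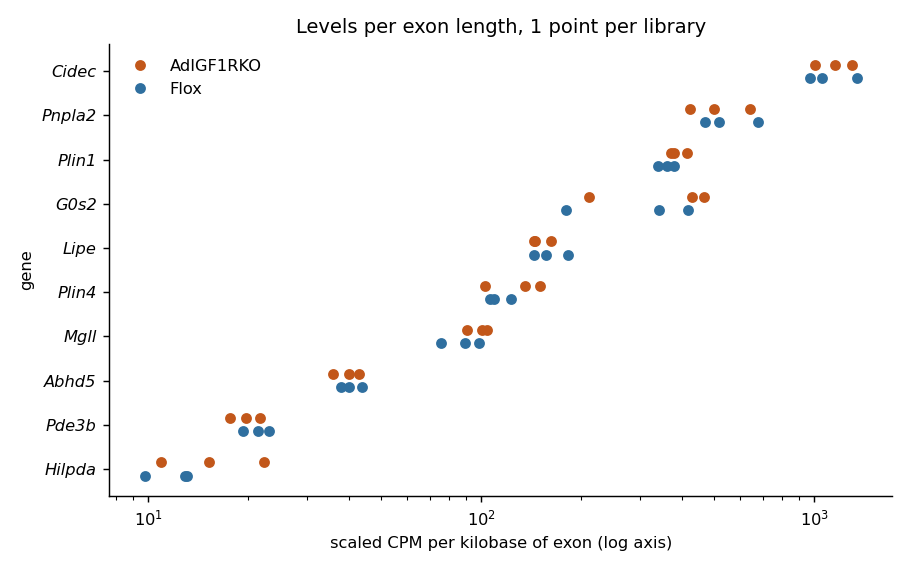
Level of each gene per exon length, in scaled CPM per kilobase on a log axis, with 1 point per library and AdIGF1RKO drawn above Flox. Cidec lies rightmost, at 973 to 1344 per kilobase over the 6 libraries, and Hilpda leftmost, and AdIGF1RKO and Flox points overlap in every row.

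Pnpla2, the lipase of the first step, had 1686, 1112 and 1314 scaled CPM in AdIGF1RKO 1, 2 and 3, against 1361, 1785 and 1235 in Flox 1, 2 and 3. The lowest library was AdIGF1RKO 2 and the highest Flox 2, with the others in between. On the log2(scaled CPM + 1) scale AdIGF1RKO minus Flox was -0.09 ± 0.20 (SE; limma adjusted p = 0.998, as for each of the 10 genes), and the 95% interval ran from 0.666-fold to 1.32-fold.

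Lipe, the diacylglycerol lipase that protein kinase A activates, had 889, 798 and 788 scaled CPM in AdIGF1RKO, against 859, 999 and 790 in Flox. Flox 2 was again the highest library, and the other 5 lay close together. Its log2 difference was -0.09 ± 0.12 (SE), and the 95% interval ran from 0.768-fold to 1.15-fold.

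Mgll, which completes the release of glycerol and also degrades the endocannabinoid 2-arachidonoylglycerol, had 502, 485 and 439 scaled CPM in AdIGF1RKO, against 430, 475 and 366 in Flox. The 2 highest libraries were AdIGF1RKO 1 and 2, and only Flox 2 lay within the AdIGF1RKO range. AdIGF1RKO minus Flox was 0.17 ± 0.12 (SE), with an interval from 0.916-fold to 1.38-fold. The AdIGF1RKO library lay above the same-numbered Flox library in all 3 pairs, by 0.22, 0.03 and 0.26 on the log2 scale. The labels do not say what a number marks, so this pairing is assumed.

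The regulators of Pnpla2 differed among themselves in how far they varied. Abhd5, the co-activator, was steady, with 113, 126 and 136 scaled CPM in AdIGF1RKO, against 120, 138 and 126 in Flox. The highest library had 1.22 times the level of the lowest, and the 95% interval of the group difference ran from 0.821-fold to 1.16-fold around a log2 difference of -0.03.

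G0s2, the inhibitor, varied most among the 10 genes over the 6 libraries, by 2.60-fold. It had 373, 406 and 183 scaled CPM in AdIGF1RKO, against 297, 365 and 156 in Flox. The lowest library of each group was number 3, which was also the richest of its group in skeletal muscle RNA (5.03% of reads in AdIGF1RKO 3 and 13.8% in Flox 3). Its log2 difference was 0.24 ± 0.41 (SE), and the interval of 0.592-fold to 2.35-fold was the widest of the set. Within same-numbered pairs, again an assumed pairing, the AdIGF1RKO library was higher in 3 of 3, by 0.33, 0.15 and 0.23. A limma fit blocked on that number gave an adjusted p of 0.914 (unadjusted 0.0534). The sign of the difference turned without Flox 3 (-0.12) and with the muscle marker level as a covariate (-0.02). Without AdIGF1RKO 3 the difference was 0.60, and without both Flox 3 and AdIGF1RKO 3 it was 0.24. The part of muscle RNA in the G0s2 level was not tested.

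Hilpda, the other inhibitor and a gene known to be induced by hypoxia and by lipid loading, had the largest log2 difference of the set. It had 12.1, 24.5 and 16.8 scaled CPM in AdIGF1RKO, against 14.2, 14.4 and 10.8 in Flox, on 521 to 1735 reads per library. AdIGF1RKO 2 stood above all others, while AdIGF1RKO 1 lay below Flox 1 and Flox 2. AdIGF1RKO minus Flox was 0.36 ± 0.26 (SE), with an interval from 0.840-fold to 1.97-fold. Without AdIGF1RKO 2 it was 0.12 and without AdIGF1RKO 1 it was 0.60. AdIGF1RKO 2 was also the library with the highest level of lipid-associated macrophage markers: the 10 markers summed to 883, 1545 and 828 scaled CPM in AdIGF1RKO 1, 2 and 3, against 802, 856 and 845 in Flox 1, 2 and 3. Cd63, a lysosomal protein gene and the most abundant of these markers, had 496, 502 and 450 in AdIGF1RKO, against 443, 492 and 481 in Flox, and so made up much of each sum. All 10 markers had a log2 difference above 0, beside 44.8% of all tested genes, with a median of 0.72. However, 0 of 10 passed limma at an adjusted or an unadjusted p under 0.05, beside 0% and 2.96% of all tested genes. The groups did not overlap for 1 of the 10 markers, beside 8.27% of all tested genes. The part of these cells in the Hilpda level was not tested.

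Of the droplet coat genes, Plin1, which encodes the main perilipin of the fat cell, was steady at 1605, 1465 and 1441 scaled CPM in AdIGF1RKO, against 1402, 1469 and 1320 in Flox. Only Flox 2 reached into the AdIGF1RKO range. Plin1 had a log2 difference of 0.11 ± 0.10 (SE) and an interval from 0.911-fold to 1.27-fold, and the difference was -0.06 with the values as deposited.

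Plin4, a perilipin of mature adipocytes that coats small new droplets, had 866, 595 and 780 scaled CPM in AdIGF1RKO, against 616, 708 and 633 in Flox. All 3 Flox libraries lay inside the AdIGF1RKO range, which AdIGF1RKO 2 opened downwards. AdIGF1RKO minus Flox was 0.18 ± 0.16 (SE), with an interval from 0.872-fold to 1.47-fold. Without AdIGF1RKO 2 it was 0.33, with an unadjusted limma p of 0.0346 and an adjusted p of 1.00.

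Cidec, the droplet fusion factor, had 2288, 1770 and 2022 scaled CPM in AdIGF1RKO, against 1859, 2358 and 1708 in Flox. The spread within each group exceeded the distance between the means, with SDs of 259 in AdIGF1RKO and 340 in Flox around means of 2027 in AdIGF1RKO and 1975 in Flox (n = 3 each). Cidec had a log2 difference of 0.04 ± 0.16 (SE) and an interval from 0.783-fold to 1.36-fold.

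Pde3b, through which insulin restrains the cascade, had 143, 116 and 130 scaled CPM in AdIGF1RKO, against 140, 152 and 126 in Flox. Its libraries ran in the same order from high to low as those of Pnpla2, from Flox 2 and AdIGF1RKO 1 down to Flox 3 and AdIGF1RKO 2. Its log2 difference was -0.11 ± 0.12 (SE), with an interval from 0.764-fold to 1.12-fold.

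**Figure D2:**
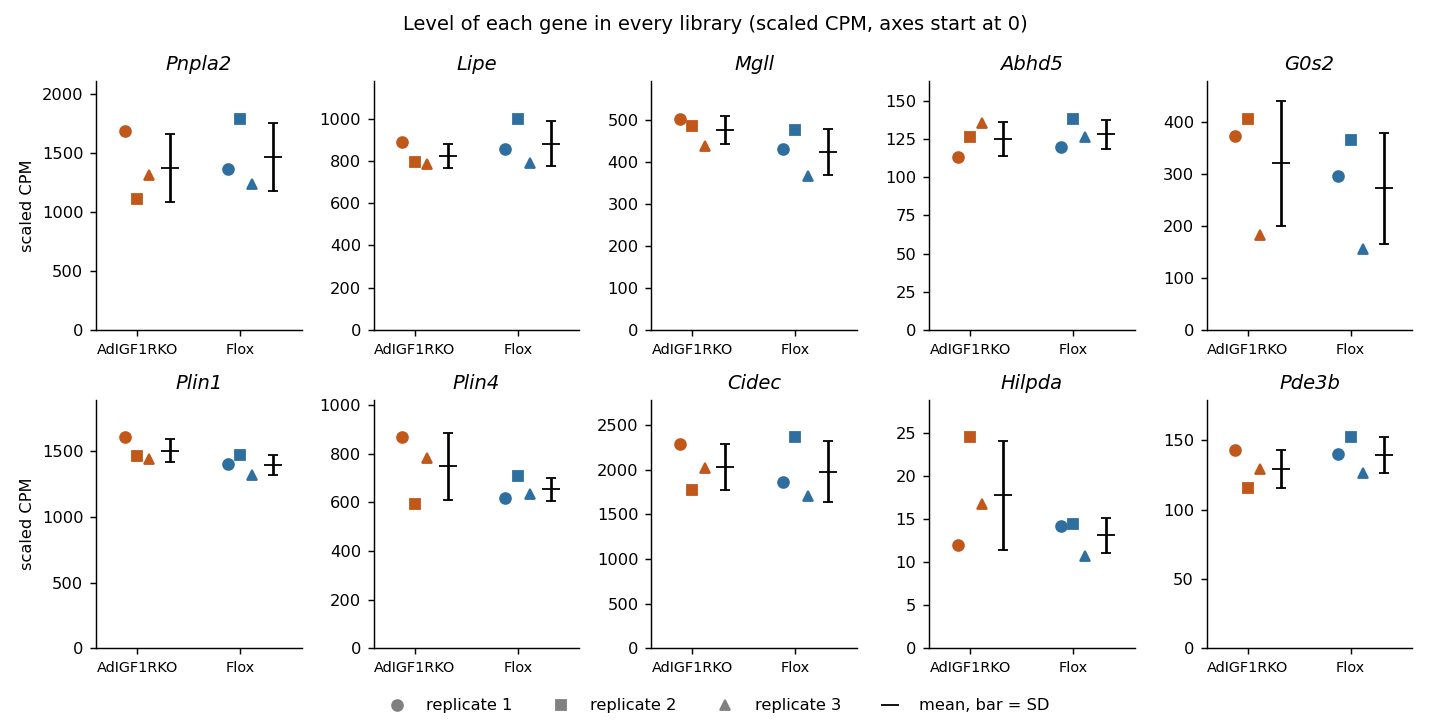
Scaled CPM of the 10 genes in each library on axes that start at 0, with AdIGF1RKO left of Flox, marker shapes for replicate numbers and the mean with its SD beside the points. The groups overlap in each panel, G0s2 is lowest in replicate 3 of both groups, and the Hilpda value of 24.5 in AdIGF1RKO 2 stands above the rest.

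Across the set, 0 of 10 genes passed limma at an adjusted p under 0.05, as did 0% of the 12993 genes tested. At an unadjusted p under 0.05 the count was 0 of 10, against 2.96% of all tested genes, or 385 genes (582 with the replicate number as a block). Groups without overlap were found for 0 of 10 genes, against 8.27% of all tested genes. Of the count tests, edgeR called 0 genes and DESeq2 called 23, or 0.177%, of which 0 were in the set. The median log2 difference of the 10 genes was 0.07, beside a median of -0.02 for all tested genes. The difference was below 0 for 4 of the 10 genes and for 55.2% of all tested genes. Scaling moved the whole distribution. With the values as deposited the medians were -0.09 for the set and -0.17 for all genes, and with libraries scaled to equal sums they were 0.20 and 0.09, with all 10 genes above 0. Because none passed, the intervals state what the libraries allow under the main scaling alone. For Abhd5, Lipe, Pde3b and Plin1 they held no fold change beyond 1.27 upwards or below 0.764 downwards, while for G0s2 they reached 2.35. Other scalings moved the estimates. With the values as deposited the log2 differences of Abhd5, Lipe, Pde3b and Plin1 were -0.20, -0.26, -0.27 and -0.058. With libraries scaled to equal sums they were 0.088, 0.031, 0.013 and 0.23. Larger changes are thus not excluded.

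**Figure D3:**
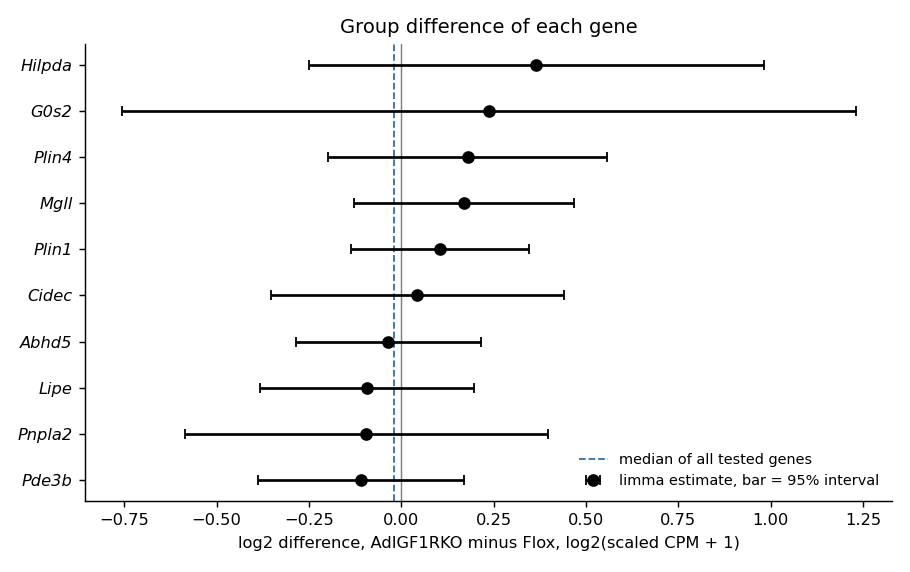
Log2 difference of each gene, AdIGF1RKO minus Flox, with its 95% interval from limma, and the median of all tested genes as a dashed line. All 10 intervals cross 0, the estimates run from -0.11 for Pde3b to 0.36 for Hilpda, and G0s2 has the widest interval.

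Ratios of 2 genes within a library do not depend on how libraries are scaled, and 8 ratios that follow the pathway were compared between the groups. They are read ratios not divided by gene length, so they are set side by side between libraries only. For Mgll over Lipe, the last lipase against the one before it, the read ratio was 0.564, 0.608 and 0.556 in AdIGF1RKO 1, 2 and 3, against 0.501, 0.476 and 0.464 in Flox 1, 2 and 3. Every AdIGF1RKO library had a higher ratio than every Flox library. The log2 ratio averaged -0.80 ± 0.07 in AdIGF1RKO and -1.06 ± 0.06 in Flox (SD, n = 3 each), a difference of 0.26 (exact permutation test, two-sided p = 0.1, the smallest that 3 against 3 can give; 0.8 adjusted over the 8 ratios). The difference lay between 0.22 and 0.29 when each library was left out in turn. It was the single ratio of the 8 without overlap, and it did not pass the correction.

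The other 7 ratios overlapped between the groups. The read ratio of the inhibitor G0s2 to its target Pnpla2 was 0.222, 0.365 and 0.140 in AdIGF1RKO, against 0.218, 0.205 and 0.127 in Flox. Here AdIGF1RKO 2 was the highest and both libraries number 3 the lowest, and the log2 difference of 0.33 had an exact permutation p = 0.4. Within same-numbered pairs, an assumed pairing, this ratio was higher in AdIGF1RKO in 3 of 3. The exact sign-flip permutation p was 0.25, the smallest that 3 pairs can give. Hilpda over Pnpla2 had a log2 difference of 0.48 (exact permutation p = 0.5), and Abhd5 over Pnpla2 one of 0.06 (exact permutation p = 0.8). Lipe over Pnpla2 differed by 0.00 on the log2 scale, between means of -0.71 ± 0.22 in AdIGF1RKO and -0.72 ± 0.11 in Flox. Pde3b over Lipe differed by -0.02, Cidec over Plin1 by -0.06 and Plin4 over Plin1 by 0.07, each with an exact permutation p of at least 0.6.

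**Figure D4:**
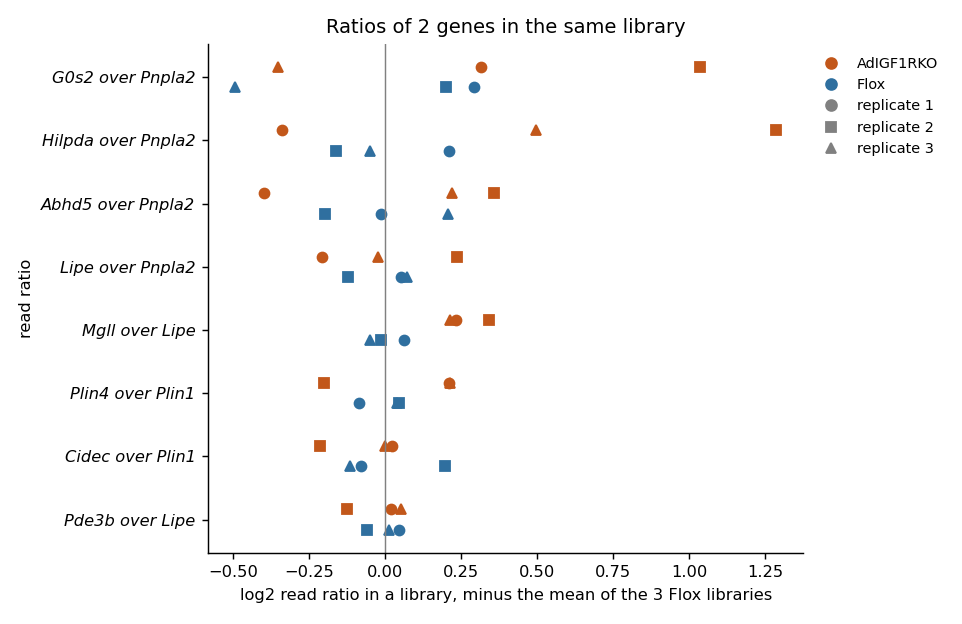
Log2 read ratio of 8 pairs of genes in each library, drawn as the distance from the mean of the 3 Flox libraries, with AdIGF1RKO above Flox and marker shapes for replicate numbers. For Mgll over Lipe the AdIGF1RKO points lie to the right of all Flox points, and in the other rows the groups overlap.

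The 10 genes did not vary as a block over the libraries. Pnpla2, Pde3b, Lipe and Cidec were highest in AdIGF1RKO 1 and Flox 2 and lower in AdIGF1RKO 2 and Flox 3. For Pnpla2 the deviation from the mean of the 6 libraries, in log2(scaled CPM + 1), was -0.33 in AdIGF1RKO 2 and 0.36 in Flox 2. Plin1, Mgll and Plin4 had their highest level in AdIGF1RKO 1 (0.15, 0.17 and 0.32). G0s2 and Hilpda were highest in AdIGF1RKO 2 (0.54 and 0.68), the library where Pnpla2, Pde3b and Plin4 were lowest. Abhd5 followed neither pattern, with its highest level in Flox 2 (0.13) but its lowest in AdIGF1RKO 1 (-0.15). Of the 10 genes, 8 lay above their own mean in AdIGF1RKO 1, 9 in Flox 2 and 1 in Flox 3. The reads of the 10 genes together made up 0.925%, 0.730% and 0.714% of the AdIGF1RKO libraries 1, 2 and 3, against 0.756%, 0.878% and 0.515% of the Flox libraries. The low share in Flox 3 stood beside its 13.8% of muscle marker reads, and the part of muscle RNA in it was not tested.

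**Figure D5:**
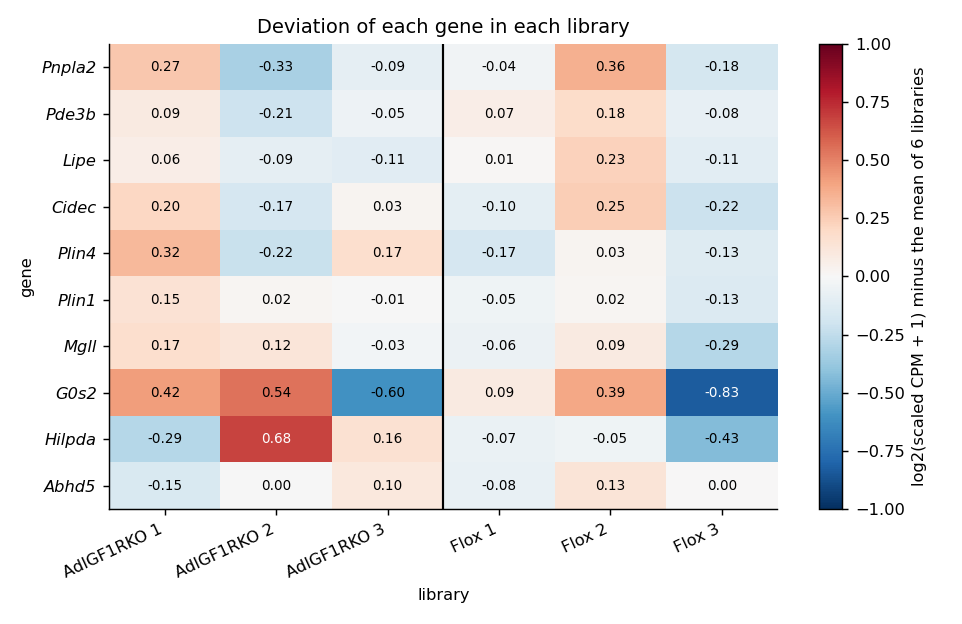
Deviation of each gene from its own mean over the 6 libraries, in log2(scaled CPM + 1), with AdIGF1RKO libraries left of Flox. Pnpla2, Pde3b, Lipe and Cidec are high in AdIGF1RKO 1 and Flox 2, and G0s2 is low in AdIGF1RKO 3 (-0.60) and Flox 3 (-0.83).

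Sequences before the transcription start are shown for Pnpla2, Lipe and Cidec, which with Pde3b were highest in Flox 2 and AdIGF1RKO 1. The lowest library differed: AdIGF1RKO 2 for Pnpla2 and Pde3b, AdIGF1RKO 3 for Lipe and Flox 3 for Cidec. RefSeq start sites of build GRCm38.p6 matched 9 of the 10 genes, with 13 start sites. Pde3b was not matched. The 250 bases before the start of Pnpla2 (chr7:141454938-141455187, plus strand), of the downstream start site of Lipe (chr7:25390113-25390362, minus strand) and of the upstream start site of Cidec (chr6:113435761-113436010, minus strand) are shown 5′ to 3′ on the strand of the gene, and none of these windows holds an exon of the GENCODE M21 basic annotation. At both start sites of Cidec the bases after the start were not found in a GENCODE M21 transcript of the gene, unlike at the start sites of the other matched genes. The Cidec start is thus less certain, and the lack of exons in its window does not settle it. The downstream window of Cidec also holds no such exon and is not shown. The windows of Mgll and of the upstream start site of Lipe overlap annotated exons and are not shown. Capitals mark matches on either strand to GTAAACA, a sequence that FoxO factors bind, or to the E-box CACGTG. FoxO factors are held out of the nucleus by insulin and IGF-1 signalling and are known to raise Pnpla2 expression.
Pnpla2: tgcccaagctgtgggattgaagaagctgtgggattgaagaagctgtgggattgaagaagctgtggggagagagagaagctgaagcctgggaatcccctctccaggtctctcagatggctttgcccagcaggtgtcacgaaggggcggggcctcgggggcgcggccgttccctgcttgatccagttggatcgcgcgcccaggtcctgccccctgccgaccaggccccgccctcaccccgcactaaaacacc
Lipe: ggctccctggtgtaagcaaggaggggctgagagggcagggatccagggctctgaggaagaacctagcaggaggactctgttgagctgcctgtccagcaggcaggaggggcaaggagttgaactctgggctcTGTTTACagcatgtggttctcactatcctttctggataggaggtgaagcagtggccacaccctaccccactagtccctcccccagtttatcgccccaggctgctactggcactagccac
Cidec: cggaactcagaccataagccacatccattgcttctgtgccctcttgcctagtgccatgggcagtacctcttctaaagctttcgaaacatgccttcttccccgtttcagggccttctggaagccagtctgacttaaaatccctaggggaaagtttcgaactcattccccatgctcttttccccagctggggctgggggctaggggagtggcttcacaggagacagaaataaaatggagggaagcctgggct
The match in Lipe began 119 bases before that start. GTAAACA was found before start sites of Lipe and Mgll, which makes 2 of the 13 windows, against 3.16% of 32817 windows of the same length. CACGTG was likewise found before start sites of Lipe and Mgll, in 2 of 13 windows against 6.02%. Both of these CACGTG matches lie in the windows not shown, as does the GTAAACA match of Mgll. Of the 4 motifs searched, the other two were ACGTG, the core of the hypoxia response element, and AGGTCA, a sequence that nuclear receptors bind. ACGTG, which every CACGTG contains, was found before start sites of Hilpda, Lipe and Mgll, in 4 of 13 windows against 16.6%. AGGTCA was found before the start of Abhd5, in 1 of 13 windows against 14.0%. A match is a description of the letters in this window, and it was not tested whether a factor binds there.

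Other tested genes with a mean of at least 10 scaled CPM, 8932 in all, were ranked by likeness to the mean course of the set. The 3 closest were Fam216a, Itm2b and Adgrf5. As given above, the 10 genes did not themselves vary as a block. Itm2b, a membrane protein, had 2284, 2177 and 2078 scaled CPM in AdIGF1RKO, against 2126, 2313 and 1852 in Flox. Adgrf5, an adhesion receptor of endothelium, had 152, 146 and 136 in AdIGF1RKO, against 141, 157 and 123 in Flox. They were picked as the highest of many Pearson correlations with the mean deviation of the 10 genes (0.99 each over 6 libraries), so they are a description without a test.

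Other genes of the lipid droplet surface gave 0 of 18 calls in either direction, with 8 log2 differences above 0 and 10 below and a median of -0.02. The groups did not overlap for 1 of them, Cav1, which encodes the caveolar protein caveolin 1. Cav1 had 2275, 2466 and 2313 scaled CPM in AdIGF1RKO, against 1937, 2265 and 1570 in Flox (log2 difference 0.30 ± 0.15, SE). The sums of endothelial markers, given with the other cell types, did not overlap between the groups either, and their part in the Cav1 level was not tested. Plin2, the perilipin found in most lipid-storing cells and in foam cells, had 373, 711 and 398 in AdIGF1RKO, against 386, 346 and 351 in Flox. As with Hilpda, AdIGF1RKO 2 stood above the other 5 libraries. Plin3 averaged 25.2 ± 2.40 in AdIGF1RKO and 22.5 ± 0.713 in Flox, and Faf2, a factor that extracts droplet and ER proteins for degradation, 29.8 ± 2.08 in AdIGF1RKO and 27.5 ± 1.95 in Flox (SD, n = 3 each). Fitm1, the lipid storage inducer of skeletal muscle, had the lowest log2 difference of this list (-1.18) and was picked after its values were seen. It had 13.7 scaled CPM on average in AdIGF1RKO and 42.0 in Flox, beside the muscle marker shares given above.

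Other lipases and esterases gave 0 of 18 calls in either direction, with 9 differences above 0 and 9 below and a median of 0.00. Of these, 3 had an unadjusted limma p under 0.05, and all 3 differences were below 0, as were 1.13% of all tested genes at that p. Ces1f, a carboxylesterase with close paralogs among which reads could be divided uncertainly, had 245, 164 and 187 scaled CPM in AdIGF1RKO, against 255, 276 and 248 in Flox. Its groups did not overlap, with a log2 difference of -0.40 ± 0.16 (SE, limma adjusted p = 0.998). Pnpla7, a lysophospholipase related to Pnpla2, had 27.2, 21.6 and 17.4 in AdIGF1RKO, against 26.7, 32.7 and 33.6 in Flox, and AdIGF1RKO 1 lay within the Flox range (-0.49 ± 0.18, SE). Lipg, endothelial lipase, averaged 1.72 ± 0.767 in AdIGF1RKO and 3.08 ± 0.525 in Flox on 71 to 240 reads. Ces2e, the remaining named gene, was low, with 0.942 ± 0.284 in AdIGF1RKO and 1.33 ± 0.147 in Flox.

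Genes of cyclic AMP and protein kinase A, which act upstream of Lipe and Plin1, gave 0 of 27 calls in either direction, with 10 differences above 0 and 17 below and a median of -0.03. Prkar2b, the regulatory subunit of protein kinase A that prevails in adipocytes, had 408, 439 and 473 scaled CPM in AdIGF1RKO, against 386, 394 and 352 in Flox. Its groups did not overlap, and the log2 difference of 0.22 ± 0.10 (SE) did not pass (limma adjusted p = 0.998, unadjusted 0.0607). The catalytic subunit gene Prkacb averaged 41.3 ± 2.07 in AdIGF1RKO and 46.1 ± 3.69 in Flox. Akap1, a mitochondrial anchor of the kinase, averaged 39.99 ± 5.32 in AdIGF1RKO and 48.7 ± 7.97 in Flox. The adenylyl cyclase gene Adcy4 averaged 17.8 ± 3.70 in AdIGF1RKO and 14.5 ± 1.69 in Flox. Adcy4 is also expressed by endothelial cells, whose markers were higher in AdIGF1RKO in sum, and their part in its level was not tested. Groups without overlap were found for 1 of 18 droplet genes (Cav1), 1 of 18 lipases and esterases (Ces1f) and 1 of 27 genes of the cyclic AMP list (Prkar2b), beside 8.27% of all tested genes.

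Among markers of the cell types that the pad could hold, the 13 adipocyte markers in the table summed to 65793, 59036 and 66693 scaled CPM in AdIGF1RKO, against 63676, 79578 and 64524 in Flox. Flox 2, the highest library here, was also the highest for Pnpla2, Lipe, Abhd5, Cidec and Pde3b. With libraries scaled to the adipocyte markers the median log2 difference was 0.10 for the set and 0.00 for all tested genes, with 0 of 10 genes passing. The 10 general macrophage markers summed to 2594, 3516 and 2270 in AdIGF1RKO, against 3117, 2819 and 1977 in Flox. Endothelial markers summed to 771, 637 and 632 in AdIGF1RKO, against 614, 629 and 539 in Flox, so each AdIGF1RKO sum was above each Flox sum. Of the 10 endothelial markers, 9 had a log2 difference above 0, beside 44.8% of all tested genes, with a median of 0.20 over the list. For 5 of 10 the groups did not overlap, beside 8.27% of all tested genes, and 2 had an unadjusted limma p under 0.05, beside 2.96%. None of them passed at the adjusted p. Progenitor markers summed to between 5080 and 6057 in AdIGF1RKO, against 5193 to 6331 in Flox. The brown fat markers Ucp1 and Elovl3, the muscle marker Myh7, the lymphocyte marker Cr2 and 6 of 10 epithelial markers, Epcam among them, were not in the table analysed here. The lowest count in that table was 1 read in every library, and its filter is not given. A missing marker thus cannot be read as the absence of a cell type. The other brown fat markers summed to 446 to 1008 in AdIGF1RKO and 370 to 2381 in Flox. Cox8b led, with 359, 430 and 666 in AdIGF1RKO, against 557, 289 and 1475 in Flox. It was highest in number 3 of each group, the libraries richest in muscle RNA, and the part of muscle in its level was not tested. Cidea of the same list, picked after its values were seen, ran otherwise, with 48.7, 107 and 28.0 in AdIGF1RKO, against 107, 42.5 and 75.2 in Flox. Lymphocyte markers summed to at most 15.7 in AdIGF1RKO and 21.7 in Flox, and epithelial markers to at most 15.8 in AdIGF1RKO and 16.9 in Flox.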

How the data were processed

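The authors' table holds 14861 genes in 6 libraries and is named FPKM. The deposited signal was in fact a whole read count, multiplied by 1000000000 and divided by 1 constant for the library, for 100% of values within 0.5, with no division by gene length. Per the submitters' processing notes the genome build was GRCm39. Aligner, counter, annotation and filter: not given in the sources used here. Per the labels' protocols, libraries were stranded and polyA-selected.

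Reads were recovered and divided by median-ratio size factors. The design had assumed FPKM, and limma on log2(value + 1) was kept. The 12993 genes with a mean of at least 1 scaled CPM were fitted in limma 3.58.1 under R 4.3.3 with an intensity trend, two-sided, with Benjamini-Hochberg adjustment over all of them at a threshold of 0.05. The log2 scale with this pseudocount understates changes of low genes. edgeR 4.0.16 (quasi-likelihood) and DESeq2 1.42.0 on the recovered reads, 5 other scalings, other filters and pseudocounts, array quality weights, a muscle covariate, a replicate block and left-out libraries were alternatives. The limma fit was tested on simulated data.

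Named genes were Igf1r, the 10 genes of the set, Adipoq and Fabp4. Others were up to 4 genes of each pathway list with the smallest unadjusted p, and the 3 genes closest to the mean course of the set. The 10 genes and all lists were chosen with earlier results of these data known. Same-numbered libraries deviated together from their group means (r = 0.35, 0.35 and 0.83 for numbers 1, 2 and 3 over the tested genes). However, AdIGF1RKO 1 correlated more with Flox 2 (0.70), and AdIGF1RKO 2 correlated with Flox 1 (0.33) about as much as with Flox 2. The labels do not say what a number marks. The main fit did not use the numbers, and results by same-numbered pair or block rest on an assumed pairing that these correlations do not establish. No pair of libraries agreed within sampling noise. The labels do not say that libraries came from separate mice, so p-values measure the spread between these libraries. Counting error is small beside that spread, at 521 or more reads per gene of the set and library. Read ratios were tested with an exact permutation test.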

Additional observations from a re-analysis of the deposited data

How the results depend on the processing

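No gene of the set passed under any of the 21 alternatives to the limma fit. Over the whole table DESeq2 called 23 genes, and leaving out each library in turn gave 0 to 1 called genes. The replicate block (0 of 10 genes of the set and 0 genes of the table called) changed no call. Mgll, Plin4 and Hilpda kept a positive log2 difference under all 21 alternatives, from 0.0061 (Mgll) and 0.016 (Plin4) with the values as deposited and 0.12 (Hilpda) without AdIGF1RKO 2 upwards. The sign of the others turned under some settings, and the cause was not tested. With the values as deposited Plin1 was at -0.058 and Cidec at -0.12. With libraries scaled to equal sums Pnpla2 was at 0.029, Lipe at 0.031, Abhd5 at 0.088 and Pde3b at 0.013. With quantile normalization Lipe was at 0.011 and Abhd5 at 0.0053. With array quality weights Abhd5 was at 0.029 and G0s2 at -0.084, and with the muscle covariate G0s2 was at -0.017 and Cidec at -0.021. Without both Flox 3 and AdIGF1RKO 3 Cidec was at -0.059. Leaving out each library in turn gave -0.25 to 0.061 for Pnpla2, -0.17 to 0.0023 for Lipe, -0.10 to 0.035 for Abhd5, -0.12 to 0.60 for G0s2 and -0.053 to 0.18 for Cidec. The log2 ratio differences then ranged from -0.019 to 0.68 for G0s2 over Pnpla2, -0.089 to 0.29 for Abhd5 over Pnpla2, -0.11 to 0.11 for Lipe over Pnpla2, -0.12 to 0.035 for Cidec over Plin1 and -0.053 to 0.037 for Pde3b over Lipe. With same-numbered libraries paired, the replicate block left the ratio of Mgll over Lipe at 0.26 (exact sign-flip p = 0.25, the smallest that 3 pairs can give).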
